A study of Mus musculus with 8 samples.

Results

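The genes described here are those of the proteasome in donor-derived haematopoietic stem cells (HSC) of mice, with or without the transcription factor E47. All probes that were not controls and whose gene name on the array began with Psma, Psmb, Psmc, Psmd, Psme, Psmf or Psmg and a digit were taken as members. This gave 69 probes for 44 gene names, of 41174 probes and 27675 gene names on the array. They fell into 15 genes of the core particle, 3 genes of the immunoproteasome (Psmb8, Psmb9 and Psmb10), 20 genes of the regulatory particle and its assembly, and 5 genes of other activators and an inhibitor. The last name, Psmc3ip, matches the rule but is no subunit: it encodes a partner of Psmc3 known from meiotic recombination. No name began with Psmg, and 8 other probes whose current RefSeq symbol is a Psm symbol carried older names and were not members (Psmb11, Psmg1, Psmg2, Psmg3 and Psme3ip1).

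RNA was measured on 8 one-colour arrays in 4 groups of 2: knockout (KO) HSC from secondary recipient mice, wild-type (WT) HSC from secondary recipients, KO HSC from primary recipients and WT HSC from primary recipients. E47 is made by the gene Tcf3 and is best known for its role in lymphocyte development, and serial transplantation into primary and then secondary recipients is a test of how long HSC keep their function. The labels give no strain, age, allele or time after transplantation, and do not say whether mice were pooled. Sorted cells were lysed and their cDNA was amplified by a PCR of all transcripts before labelling with Cy3. According to its design text, 4 samples gave the replicates, so the 2 arrays of a group may come from the same cells, and the spread behind the p-values may then be technical.

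The proteasome is the protease complex that degrades proteins tagged with ubiquitin. Its barrel-shaped core is built of alpha subunits (Psma genes), which gate the entry, and beta subunits (Psmb genes), 3 of which carry the active sites; a regulatory cap of ATPases (Psmc genes) and other subunits (Psmd genes) recognises, unfolds and feeds in the substrate. In blood cells and after interferon signalling, Psmb9, Psmb8 and Psmb10 can replace the constitutive catalytic subunits Psmb6, Psmb5 and Psmb7, which changes the peptides made for presentation on MHC class I. In HSC, protein synthesis is known to be low and tightly controlled, and proteasome activity is part of protein quality control in these cells.

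The arrays carry 60-base probes, printed here 5′ to 3′ as the files give them, with mm8 positions and strand from the same files. The 7 probes of the 6 catalytic genes are shown first, because the constitutive and immunoproteasome forms of each active site can only be told apart where their sequences differ. The 2 probes of Psmb8 are adjacent in the gene and share 3 bases, given in capitals; no base of the others is in capitals. Psmb8 lies at chr17:33811038-33811097 (first probe) and chr17:33811095-33811419 (second probe, across an intron), plus strand, near Psmb9 at chr17:33792517-33792576, minus strand. Psmb10 lies at chr8:108824906-108824965 (minus), Psmb5 at chr14:53568529-53568588 (minus), Psmb6 at chr11:70343707-70343766 (plus) and Psmb7 at chr2:38435455-38455874 (minus, across an intron).
Psmb8, A_51_P345367: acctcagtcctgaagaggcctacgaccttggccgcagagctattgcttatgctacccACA
Psmb8, A_51_P345366: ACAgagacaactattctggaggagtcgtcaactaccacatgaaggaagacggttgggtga
Psmb9, A_51_P369803: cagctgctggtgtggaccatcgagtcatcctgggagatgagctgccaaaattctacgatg
Psmb10, A_52_P570266: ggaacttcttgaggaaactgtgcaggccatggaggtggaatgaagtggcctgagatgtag
Psmb5, A_51_P269728: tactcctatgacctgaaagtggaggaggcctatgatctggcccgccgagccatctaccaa
Psmb6, A_52_P199375: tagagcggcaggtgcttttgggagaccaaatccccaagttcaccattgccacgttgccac
Psmb7, A_51_P468329: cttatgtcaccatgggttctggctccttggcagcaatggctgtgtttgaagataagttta
Of the 69 member probes, 25 lie across an intron, 59 matched a RefSeq accession, and each of the 59 carried the same symbol there (RefSeq mouse gene table, used for names only).

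The 2 arrays numbered replicate 2 in primary recipients were far dimmer than the others, that of KO and that of WT HSC. The 75th percentile of the signal was 19.3 on the KO and 34.9 on the WT array, against 319 to 847 on the other 6, and 35.4% and 41.9% of spots were well above background on them, against 72.2% to 90.7% on the others. One slide carried all 4 WT arrays, and the KO arrays of each recipient kind had another slide, so slide and genotype cannot be told apart. Of the comparisons between recipients, the one in WT lies within a slide. E47's own gene is Tcf3 (named Tcfe2a on the array). By its probe of highest mean, log2 levels were 1.32 and -1.34 in KO and 1.07 and 1.28 in WT HSC from secondary recipients. In primary recipients they were -2.08 and 2.39 in KO and -1.61 and 5.20 in WT HSC. Another probe of the gene differed, with -0.42 and -1.51 in KO and -4.46 and -0.89 in WT HSC from secondary recipients. On that probe, primary recipients had -3.62 and 7.12 in KO and -2.74 and -3.98 in WT HSC. No label says which part of the gene was deleted, so these levels check nothing about the labels.

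A level is given throughout as log2 of the processed signal minus the array's own 75th percentile, and a change as the difference of mean levels relative to the median of all 22990 genes and unnamed probes tested. Where a gene had several probes, the one with the highest mean represented it. The number of member probes well above background was 66 and 61 of 69 in KO and 66 and 63 in WT HSC from secondary recipients, and 58 and 27 in KO and 58 and 37 in WT HSC from primary recipients. All 44 member genes passed the filter, which asked for a probe marked above background on every array of some group. From here on, passing through a group refers to the probe that represents the gene. By this probe, 32 passed through groups of both recipient kinds, 12 through secondary groups only (8 regulatory, 2 core, 2 activators or inhibitor) and 0 through primary groups only. The representing probes of those 12 were thus bright on both arrays of a group in secondary recipients only. For Psmd2, Psme2 and Psmf1 another probe was above background on both arrays of a primary group, so these genes could also enter there.

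**Figure D1:**
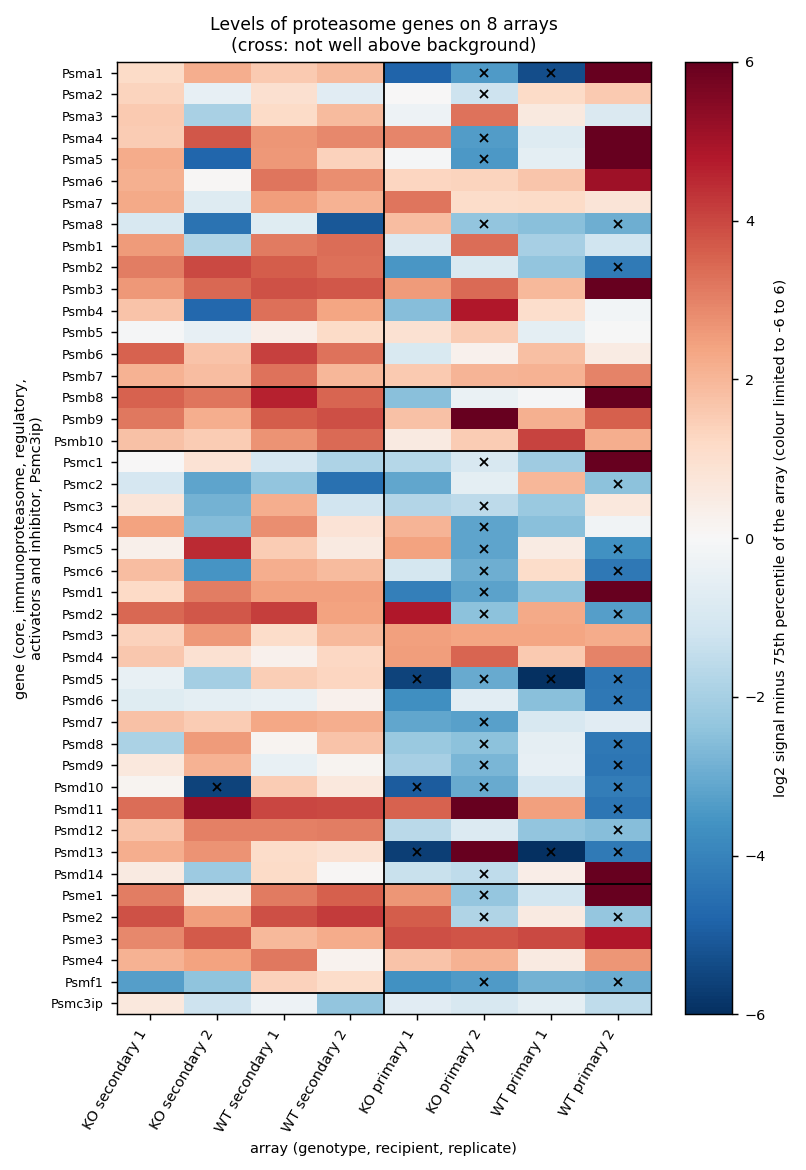
Level of each of the 44 member genes (rows, by class) on the 8 arrays (columns), as log2 signal minus the array's 75th percentile; the colour scale ends at -6 and 6, and a cross marks a probe not well above background. Crosses are most frequent on replicate 2 of both primary groups, where 27 and 37 of 69 member probes were above background.

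Among the 32 members that passed through both recipient kinds, the 12 regulatory genes stood higher against the other genes of the same array in secondary than in primary recipients. Their median, relative to the median of the 14759 genes that passed in the same way, was 1.48 and 1.19 in KO and 2.16 and 1.53 in WT HSC from secondary recipients, against -1.72 and -1.31 in KO and -1.54 and -0.25 in WT HSC from primary recipients, without overlap. The median of all 32 was 1.96 and 1.19 in KO and 3.12 and 2.62 in WT from secondary recipients, against -0.07 and -0.48 in KO and 0.48 and 1.43 in WT from primary recipients. Here replicate 2 of KO HSC from secondary recipients, at 1.19, lay below the dim WT array from primary recipients, at 1.43. The 13 core genes among them overlapped too. With the other 12 members included, which passed through secondary groups only, the difference is in part fixed by the filter, and the values are given as a description. The median of the 44 members lay 2.59 and 2.44 above the median gene in KO and 3.52 and 3.13 in WT HSC from secondary recipients, against 0.54 and 0.08 in KO and 0.76 and 1.1 in WT HSC from primary recipients. For the 20 regulatory genes the median was 1.83 and 2.45 in KO and 2.77 and 2.32 in WT from secondary recipients, against -0.71 and -1.01 in KO and 0.29 and -1.75 in WT from primary recipients. For the 15 core genes the values were 2.96 and 0.73 in KO and 3.91 and 3.32 in WT from secondary recipients, and 1.04 and 2.12 in KO and 1.63 and 1.98 in WT from primary recipients. The core overlapped because replicate 2 of KO HSC from secondary recipients, at 0.73, lay below all 4 primary arrays. The 5 activator and inhibitor genes had 3.75 and 3.62 in KO and 4.41 and 3.46 in WT from secondary recipients, and 3.66 and -0.79 in KO and 1.58 and 3.82 in WT from primary recipients, and overlapped too. The 3 immunoproteasome genes were above background on all 8 arrays, and their median was 4.07 and 3.40 in KO and 4.91 and 4.71 in WT from secondary recipients, and 1.58 and 2.53 in KO and 3.16 and 4.77 in WT from primary recipients, which overlap.

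**Figure D2:**
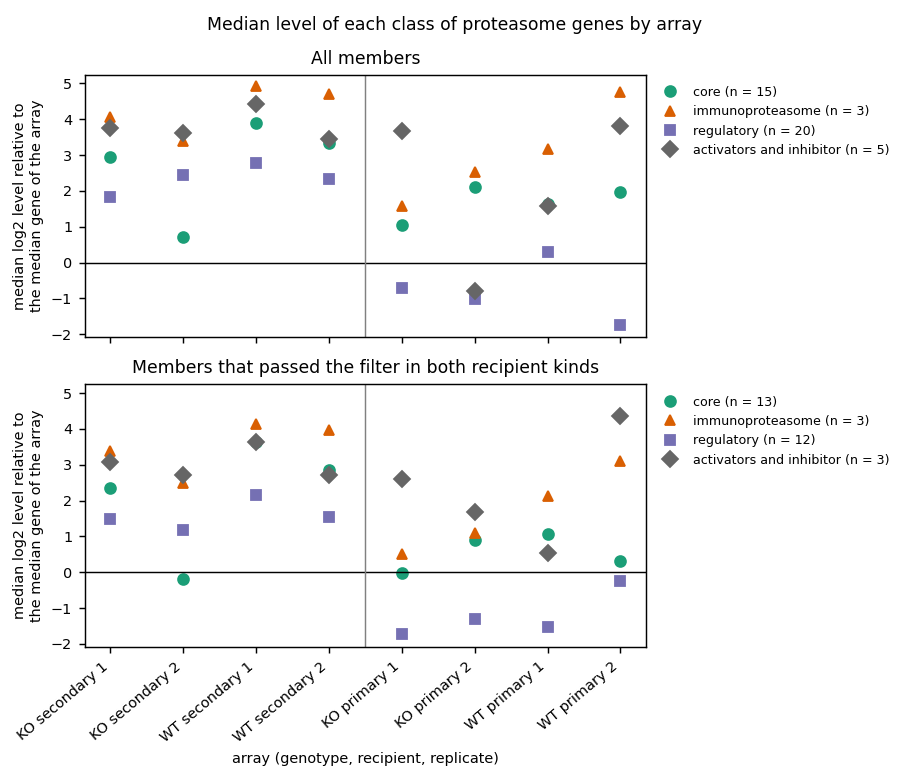
Median level of each class on each array (log2), for all members relative to the median gene tested (top; 15 core, 3 immunoproteasome, 20 regulatory and 5 activator or inhibitor genes) and for the members that passed in both recipient kinds relative to the genes that did so too (bottom; 13, 3, 12 and 3 genes). In the bottom panel the regulatory medians of the secondary arrays, 1.19 to 2.16, lie above those of the primary arrays, -1.72 to -0.25, while the other classes overlap.

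Members varied more between arrays than most genes did. The median range over the 8 arrays was 6.19 for the 44 members, against 4.59 for all genes tested, and the median absolute difference between the 2 arrays of a group was 2.36, against 1.59. The regulatory genes varied most between replicates (2.89), and the core genes less (1.5). The steadiest members were Psmd3, a subunit of the lid of the regulatory particle (range 1.5), Psmb7 (1.68) and Psmb5 (2.11), while Psmd11 and Psmd13, also lid subunits, had ranges of 15.75 and 15.40. Levels of 8 or more were found on the dim arrays alone, for 2 members in KO and 6 in WT HSC from primary recipients, and 2.71% and 5.08% of all genes tested also reached 8 there. The subunits of the complex did not follow each other closely: across the 8 arrays, the 2 dim ones included, the median correlation between pairs of members was 0.0586 (0.149 among core genes), against 0.0727 among every 5th gene tested.

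Secondary and primary recipients were compared to ask which transcripts differ after a further transplantation. Over both genotypes, the median change of the 32 members that passed through both recipient kinds was 0.88 relative to the median gene tested, against -0.36 for the 14759 genes of the same kind. It was 1.67 for the regulatory genes (8 of 12 above the median gene, 4 below), 0.70 for the core (12 above, 1 below), 1.01 for the immunoproteasome (3 above, 0 below) and 0.98 for the activators and inhibitor (2 above, 1 below). The median gene itself lay 0.76 lower in secondary recipients. Before centring, the median change of all 15 core genes was -0.05, which is no rise in level. It was 0.26 for the immunoproteasome, 2.40 for all 20 regulatory genes and 0.54 for all 5 activator and inhibitor genes. These uncentred medians include members that passed through secondary groups only. No member passed limma's test at a Benjamini-Hochberg adjusted p under 0.05, and 0% of all genes did. At an unadjusted p under 0.05, 5 of the 32 were higher (Psmb2, Psmb6, Psmd6, Psmd7 and Psmd12), against 2.29% of the 14759 genes, and 1 was lower (Psmd4), against 19.1%. In 3 of the 32 (Psmb2, Psmd7 and Psmd12) every secondary array lay above every primary array, against 1.52% of the 14759, and in 1 (Psme3) below, against 18.3%.

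For all 44 members the median change was 1.67 (37 above, 7 below), and for the 20 regulatory genes 3.16 (16 above, 4 below). Both include members whose representing probe passed in secondary recipients only. The median of the regulatory genes moved widely with the processing. It was 2.05 after normexp background correction, 2.08 without both dim arrays and 0.71 for the 3 regulatory genes with some probe above background on all 8 arrays. These were Psmd3, Psmd4 and Psmd7, and for Psmd7 that probe was not the representing one, which was above background on 7 arrays. Within WT it was 4.15, and 0.74 for those 3 genes. Over the 44, the number of higher members at an unadjusted p under 0.05 was 10 (5.44% of all genes), of lower ones 1 (14%), and of members without overlap 5 higher (3.1%) and 1 lower (12.9%). The representing probes of the 5 further genes of lower p, Psmd5, Psmd8, Psmd9, Psme2 and Psmf1, were bright in both arrays of a group in secondary recipients only. The same holds for Psmd5 and Psmd9 among those without overlap, so nothing is read from these counts.

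The gene of lowest p was Psmb2, a beta subunit of the core without an active site. Its level was 3.07 and 3.95 in KO and 3.64 and 3.29 in WT HSC from secondary recipients, against -3.51 and -0.90 in KO and -2.37 and -4.26 in WT HSC from primary recipients. All secondary arrays lay within 1 log2 unit of each other and above all primary arrays. The change was 7.0 (SE 0.84, limma adjusted p = 0.0616), and over the alternatives of processing it ranged between 5.35 and 7.90 with adjusted p between 0.0162 and 0.272. Within WT, where both groups share a slide, it was 7.81 (SE 1.25, adjusted p = 0.339), but the dim WT array from primary recipients was not well above background for it, and without that array the change was 6.57 in WT and 6.38 over both genotypes. Within KO it was 6.25 (SE 1.25, adjusted p = 0.702).

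Psmd12 and Psmd7, which belong to the lid that removes ubiquitin from substrates, came next, Psmd7 being the partner of the deubiquitinase Psmd14. Psmd12 had levels of 1.71 and 3.03 in KO and 3.01 and 3.05 in WT HSC from secondary recipients, against -1.64 and -0.81 in KO and -2.39 and -2.57 in WT from primary recipients. Its change was 5.31 (SE 0.73, limma adjusted p = 0.0752), with 6.55 (SE 0.99, adjusted p = 0.339) within WT. The dim WT array was not well above background here either, and without it these changes were 4.94 and 6.16. Psmd7 had levels of 1.78 and 1.54 in KO and 2.30 and 2.17 in WT HSC from secondary recipients, against -3.09 and -3.25 in KO and -0.97 and -0.66 in WT from primary recipients. For both genes the secondary arrays lay above the primary arrays, and Psmd7 replicates differed by at most 0.31. The change of Psmd7, named over both genotypes after its values were seen, was 4.70 (SE 0.67, limma adjusted p = 0.0798), and within KO it was 5.37 (SE 0.91, adjusted p = 0.702). Without the dim KO array, which was not well above background for Psmd7, they were 4.45 and 5.0. Another Psmd7 probe, well above background on all 8 arrays, did not follow within KO. With every probe fitted it gave -0.21 within KO, 1.79 within WT and 0.75 over both genotypes. These are the probes behind the 3 values of lowest p, Psmb2 at chr4:126186516-126189359 (plus, across an intron), Psmd12 at chr11:107313739-107313798 (plus) and Psmd7 at chr8:110470345-110470404 (minus).
Psmb2, A_51_P404084: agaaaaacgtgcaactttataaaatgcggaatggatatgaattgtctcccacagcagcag
Psmd12, A_52_P574190: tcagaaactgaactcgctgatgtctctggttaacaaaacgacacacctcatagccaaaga
Psmd7, A_52_P676913: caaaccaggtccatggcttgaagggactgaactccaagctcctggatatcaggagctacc

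Psmd5, a chaperone that helps to assemble the base of the regulatory particle, was well above background in secondary recipients alone. Its levels were -0.45 and -2.04 in KO and 1.47 and 1.28 in WT HSC from secondary recipients, and no primary array was well above background (-5.55 and -3.0 in KO, -6.99 and -4.32 in WT). It passed the filter through those groups only, so its levels are given with no test. Among the catalytic genes, Psmb6, the constitutive subunit with caspase-like activity, had a change of 3.5 (SE 0.75, adjusted p = 0.211), the largest of the 6. Its levels were 3.55 and 1.71 in KO and 4.12 and 3.26 in WT HSC from secondary recipients, against -0.93 and 0.28 in KO and 1.81 and 0.51 in WT from primary recipients. One secondary array, at 1.71, thus lay below 1 primary array, at 1.81.

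Few members lay lower relative to the median gene in secondary recipients, and the 3 described next each turned sign in some comparison under an alternative processing. Psme3, which encodes a nuclear activator of the core, had levels of 2.87 and 3.69 in KO and 1.96 and 2.22 in WT HSC from secondary recipients, against 3.87 and 3.77 in KO and 3.96 and 4.82 in WT from primary recipients. Every secondary array lay below every primary one, but the change relative to the median gene was -0.66 (SE 0.70, limma adjusted p = 0.286), -1.27 within WT (SE 0.95, adjusted p = 0.404), and 0.35 after normexp background correction. Psmd4, a ubiquitin receptor of the regulatory particle, had levels of 1.60 and 0.93 in KO and 0.24 and 1.24 in WT HSC from secondary recipients, against 2.53 and 3.49 in KO and 1.56 and 3.0 in WT from primary recipients. Its change was -0.89 (SE 0.69, limma adjusted p = 0.251), and it turned to 2.54 after quantile normalization and 2.61 after normexp, where another probe represented the gene. Psmc2, an ATPase of the base, was 2.18 lower within WT (change -2.18, SE 1.79, adjusted p = 0.417), which rested on replicate 1 of WT HSC from primary recipients, at 2.01: without that array the change was 0.05, and after normexp, with another probe, it was 1.81.

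**Figure D3:**
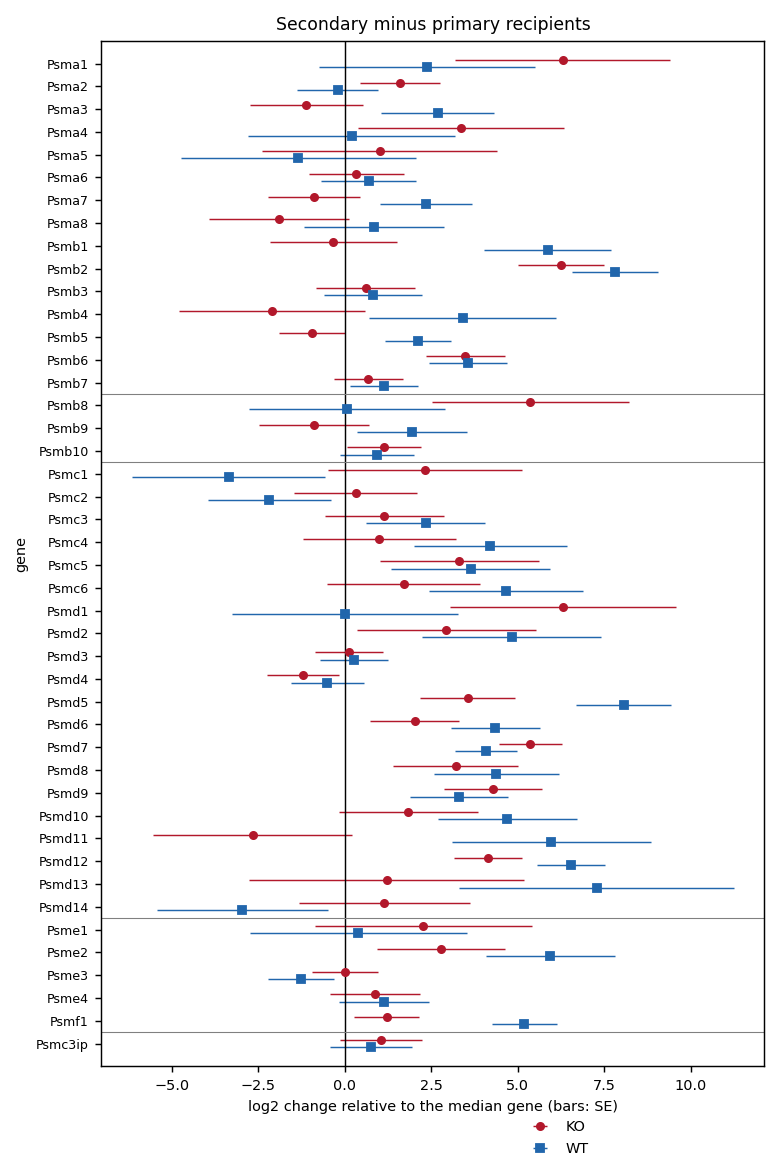
Log2 change of each member gene, secondary minus primary recipients, relative to the median gene, within KO (circles) and within WT (squares), with bars of 1 SE from limma. Psmb2 lies at 6.25 in KO and 7.81 in WT, and the median member at 1.18 in KO and 2.35 in WT. The median is that of all 44 members, of which 12 passed through secondary groups only.

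The median change was above 0 within each genotype. In KO the median change of all 44 members was 1.18 (34 above the median gene, 10 below) and in WT 2.35 (36 above, 8 below), and for the 32 that passed through both recipient kinds it was 1.0 in KO and 1.04 in WT, against -0.32 and -0.39 for the genes of the same kind. At an unadjusted p under 0.05, 5 members were higher and 0 lower in KO (background 3.24% and 2.78%), and 8 were higher and 1 lower in WT (background 5.3% and 6.87%), while 0 passed at an adjusted p under 0.05 (0% of all genes in both). The arrays of secondary recipients lay above those of primary recipients without overlap for 12 members in KO (background 12.6%) and 23 in WT (background 15%), and below them for 3 in KO (background 28.7%) and 4 in WT (background 40.6%). Of the higher ones without overlap, 5 in KO and 10 in WT passed through secondary groups only. The same holds for 1 in KO and 3 in WT of those higher at an unadjusted p under 0.05, so nothing is read from the counts over all 44. Among the 32 members, 4 were higher and 0 lower at an unadjusted p under 0.05 in KO (1.6% and 3.41% of the genes of the same kind), and 5 were higher and 1 lower in WT (2.15% and 8.18%). Without overlap, 7 of the 32 lay higher and 3 lower in KO (9.42% and 36.6%), and 13 lay higher and 4 lower in WT (9.61% and 49.7%). The 32 could pass in a recipient kind through either genotype. Among the higher ones in WT, Psmb2, Psmd6, Psmd11 and Psmd12 were not well above background on the dim WT array. The same held for Psmc1, Psmd1 and Psmd7 on the dim KO array among those higher in KO. Replicate 2 of KO HSC from secondary recipients counted for much of the KO value: without it the KO median was 1.84. Psmb5 was among the lower members in KO, at -0.07 and -0.50 in secondary and 0.90 and 1.51 in primary recipients (change -0.95, SE 0.95, limma adjusted p = 0.717).

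Markers of granulocytes and monocytes differed between the recipient kinds beside these values. Of 10 granulocyte and monocyte marker genes tested (of 11 listed, among them S100a8, S100a9 and Ltf), 9 and 8 were well above background in KO and 7 and 7 in WT HSC from secondary recipients, and 10 and 9 in KO and 10 and 9 in WT from primary recipients. Their levels, summed on the linear scale as multiples of the array's 75th percentile, were 4.08 and 15.8 in KO and 2.98 and 2.66 in WT from secondary recipients, against 155 and 12971 in KO and 224 and 9769 in WT from primary recipients. Of the 12 HSC markers, 12 and 12 in KO and 11 and 11 in WT from secondary recipients were above background, and 12 and 7 in KO and 11 and 7 in WT from primary recipients. Over both genotypes the median change of the HSC markers was 2.22 (8 above the median gene, 4 below). It was 1.47 for the 8 that passed through both recipient kinds (5 above, 3 below). The granulocyte and monocyte markers had -9.52, and B cell markers -0.22, T cell -0.90, erythroid -0.30 and megakaryocyte markers 0.15. The part of these markers in the proteasome result was not tested, and in bulk samples fewer cells of a type and less RNA per cell cannot be told apart. Without both dim arrays the median member change over both genotypes was 1.73.

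KO and WT HSC were compared to ask which transcripts differ without E47. In secondary recipients the proteasome genes lay lower in KO relative to the median gene: the median member change was -1.12, with 10 of 44 above the median gene and 34 below. All 15 core genes (median -1.53) and all 3 immunoproteasome genes (median -1.54) lay below it, as did 13 of 20 regulatory genes (median -0.92). The median gene itself lay 0.47 higher in KO. Before centring, the medians were -1.06 for the core, -1.07 for the immunoproteasome and -0.45 for the regulatory genes. Psma2, Psma8 and Psmb2 were then higher in KO, by 0.30, 0.21 and 0.05, and the other core genes lower. No member passed an adjusted p under 0.05 in limma (0% of all genes), 0 were higher and 1 lower at an unadjusted p under 0.05 (background 3.72% and 1.65%), and the arrays did not overlap for 4 higher and 15 lower members (background 34.3% and 12.1%). The core value rested in part on replicate 2 of KO HSC from secondary recipients. Without it the core median was -0.94, with 13 of 15 below, and the median of all members was -0.74.

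The member of lowest p was Psmf1, which encodes an inhibitor of the core particle known from test-tube assays. Its level was -3.29 and -2.39 in KO and 1.39 and 1.12 in WT HSC from secondary recipients, and -3.63 and -3.40 in KO and -2.86 and -2.96 in WT HSC from primary recipients. It was thus high on the 2 WT arrays from secondary recipients and low on the other 6, of which replicate 2 of both primary groups was not above background. The change in secondary recipients was -4.56 (SE 0.93, unadjusted p = 0.00272, limma adjusted p = 0.792), and over both recipients it was -2.68 (SE 0.86, adjusted p = 0.856). The interaction, KO against WT in secondary minus primary recipients, was -3.79 (SE 1.32, adjusted p = 1). Another probe of Psmf1, further 3′ in the gene, did not follow it: it gave 2.05 in secondary recipients, and quantile normalization, in which it represents the gene, turned the 3 changes to 2.12, 1.96 and 0.31. The representing probe lies at chr2:151421058-151421117 (minus strand) and the other at chr2:151407701-151407760 (minus strand).
Psmf1, A_52_P66313: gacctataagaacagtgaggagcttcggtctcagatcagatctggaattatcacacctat

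Psmd5 was next, at -0.45 and -2.04 in KO and 1.47 and 1.28 in WT HSC from secondary recipients, without overlap (change -3.09, SE 1.37, limma adjusted p = 0.983). The members of lowest p in the other direction were Psme3 and the assembly chaperone Psmd9. Psme3 had 2.87 and 3.69 in KO and 1.96 and 2.22 in WT (change 0.72, SE 0.95, limma adjusted p = 0.983). Psmd9 had 0.63 and 2.10 in KO and -0.45 and 0.16 in WT (change 1.04, SE 1.42, adjusted p = 0.983). Neither pair of groups overlapped, as was so for 34.3% of all genes in that direction.

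In primary recipients the members showed no common direction between genotypes. The median member change was -0.22, with 19 above the median gene and 25 below, and it was between -1.02 (without replicate 1 of KO) and 0.01 (without replicate 1 of WT) when 1 array was left out. No member passed an adjusted p under 0.05 in limma (0% of all genes), while 1 was higher and 2 were lower at an unadjusted p under 0.05 (background 1.94% and 1.98%). The arrays did not overlap for 6 higher and 11 lower members (background 16.5% and 9.24%). Without replicate 1 of WT HSC from primary recipients, which leaves the dim array as the single WT sample, 5 members passed the test (Psma1, Psmb8, Psmc1, Psmd1 and Psmd14), as did 548 genes in all. That fit takes the lone array to vary like the other groups.

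The 4 members described next are the 2 of lowest p in each direction in primary recipients, and 3 of them had their most extreme level on a dim array. Psmd11, a scaffold subunit of the lid, had levels of 3.53 and 11.43 in KO and 2.45 and -4.31 in WT HSC from primary recipients (change 8.15, SE 2.88, limma adjusted p = 0.997), the extreme values being those of the 2 dim arrays, without which its change was 0.93. Psmd13 had -5.67 and 9.16 in KO and -6.24 and -4.25 in WT, with 1 of the 4 arrays above background, the KO array at 9.16. Its change was 6.73 (SE 3.98, limma adjusted p = 0.997) and rested on that 1 array, without which it was -0.11. Psmd14, the deubiquitinase of the lid, had -1.33 and -1.51 in KO and 0.40 and 8.82 in WT (change -6.29, SE 2.47, adjusted p = 0.997), the highest value again on a dim array, and without it the change was -2.36. Psmd7 had -3.09 and -3.25 in KO and -0.97 and -0.66 in WT (change -2.63, SE 0.91, adjusted p = 0.997), and its replicates lay close together, although the dim KO array was not above background and without it the change was -1.98. The Psmd7 probe that was above background on all 8 arrays gave -0.20 in primary recipients when every probe was fitted.

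**Figure D4:**
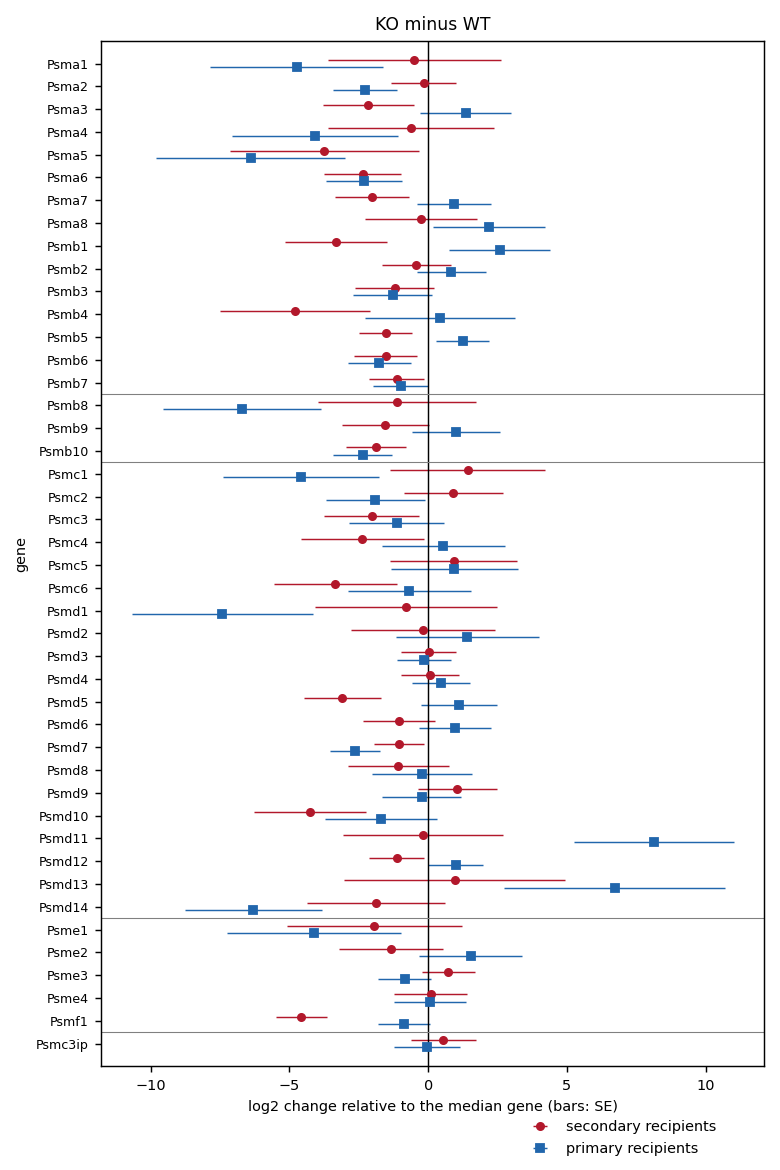
Log2 change of each member gene, KO minus WT, relative to the median gene, in secondary recipients (circles) and primary recipients (squares), with bars of 1 SE from limma. All 15 core and all 3 immunoproteasome genes lie below 0 in secondary recipients, where Psmf1 is at -4.56, and primary recipients spread between -7.41 and 8.15. In secondary recipients the median gene, set to 0 here, was itself 0.47 higher in KO.

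Over both recipient kinds the median member lay 0.74 below the median gene in KO (change -0.74, 12 above and 32 below), and the core at -1.18 (2 above, 13 below). No member passed an adjusted p under 0.05 in limma (0% of all genes), 0 were higher and 2 lower at an unadjusted p under 0.05 (background 3.45% and 1.17%), and without overlap 0 lay higher and 1 lower (background 1.27% and 0.505%). The median was -0.34 without replicate 2 of KO and -0.39 without replicate 1 of WT HSC from secondary recipients. The interaction of genotype and recipient was tested as well: 0 members and 0% of all genes passed, 0 members were higher and 1 lower at an unadjusted p under 0.05 (background 2.07% and 1.66%), and the median was -0.38. Psmb1, a beta subunit of the core without an active site, had the second lowest p there (-5.99, SE 2.58, limma adjusted p = 1), with levels of 2.57 and -1.80 in KO and 3.12 and 3.34 in WT from secondary recipients, and -0.87 and 3.37 in KO and -2.0 and -1.2 in WT from primary recipients. The 2 KO groups each held 1 high and 1 low array for this gene.

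The immunoproteasome genes gave the clearest order by genotype in 1 gene, Psmb10, whose product replaces Psmb7 and has trypsin-like activity. Its level was 1.76 and 1.51 in KO and 2.70 and 3.38 in WT HSC from secondary recipients, and 0.55 and 1.52 in KO and 4.07 and 2.19 in WT from primary recipients. Every KO array thus lay below every WT array, and it was the single member of which this held. The change was -2.08 (SE 0.71, unadjusted p = 0.0383, limma adjusted p = 0.856), and over the alternatives of processing it stayed between -2.51 and -1.59. Its constitutive counterpart Psmb7 had 2.07 and 1.84 in KO and 3.27 and 1.98 in WT from secondary recipients, and 1.58 and 2.03 in KO and 2.08 and 2.97 in WT from primary recipients, which overlap (change -1.02, SE 0.65, adjusted p = 0.862).

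Psmb8, which replaces Psmb5 as the subunit with chymotrypsin-like activity, separated recipients more than genotypes on 7 of 8 arrays. Its level was 3.54 and 3.23 in KO and 4.60 and 3.48 in WT from secondary recipients, and -2.50 and -0.40 in KO and -0.07 and 10.07 in WT from primary recipients. The value of 10.07 on the dim WT array was the highest of the gene, and the second Psmb8 probe, whose sequence follows the first, gave the same pattern: KO against WT was -3.85 by the first probe and -4.22 by the second, and secondary against primary 2.49 and 3.18, when every probe was fitted. With 1 probe per gene, the change was -3.88 for KO against WT (SE 2.13, limma adjusted p = 0.856) and 2.69 for secondary against primary recipients (SE 2.13, adjusted p = 0.619). The change between genotypes rested on the dim WT array, and the change between recipients was lowered by it. Without it the change was -1.39 for KO against WT (SE 0.81, adjusted p = 0.824) and 5.16 for secondary against primary recipients (SE 0.81, adjusted p = 0.107), and within WT the change between recipients gave 4.85, against 0.071 with that array. Psmb5 stayed within -0.50 to 1.51 on all arrays, and its change over both recipients was -0.10 for KO against WT (SE 0.76, adjusted p = 0.961), with a sign that turned when any 1 secondary array was left out.

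Psmb9, which replaces Psmb6, had 3.18 and 2.18 in KO and 3.64 and 3.87 in WT HSC from secondary recipients, and 1.76 and 6.46 in KO and 2.12 and 3.58 in WT from primary recipients. The arrays overlapped between genotypes and between recipients. Its change was -0.23 for KO against WT (SE 1.12, limma adjusted p = 0.99) and 0.50 for secondary against primary recipients (SE 1.12, adjusted p = 0.913), both of which turned sign when certain single arrays were left out. Psmb6 had a change of -1.60 for KO against WT (SE 0.75, limma adjusted p = 0.856). All 6 catalytic genes were above background on every array.

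Of 19 genes with several probes, 16 had at least 2 that passed the filter, and these often disagreed. The probes of a gene gave the same sign of the change between recipients in 11 of 16 genes and between genotypes in 8 of 16. The 3 Psmd12 probes all lay higher in secondary recipients, by 3.09 to 5.47, and the 2 Psmd7 probes that passed by 0.75 and 4.49. The 4 probes of Psme4, an activator found in the nucleus, ranged between -0.98 and 6.55, and the 3 of Psmd14 between -1.15 and 0.50. A gene's value therefore depends on which probe represents it, and the probes of Psmb8 were among the closest to each other.

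**Figure D5:**
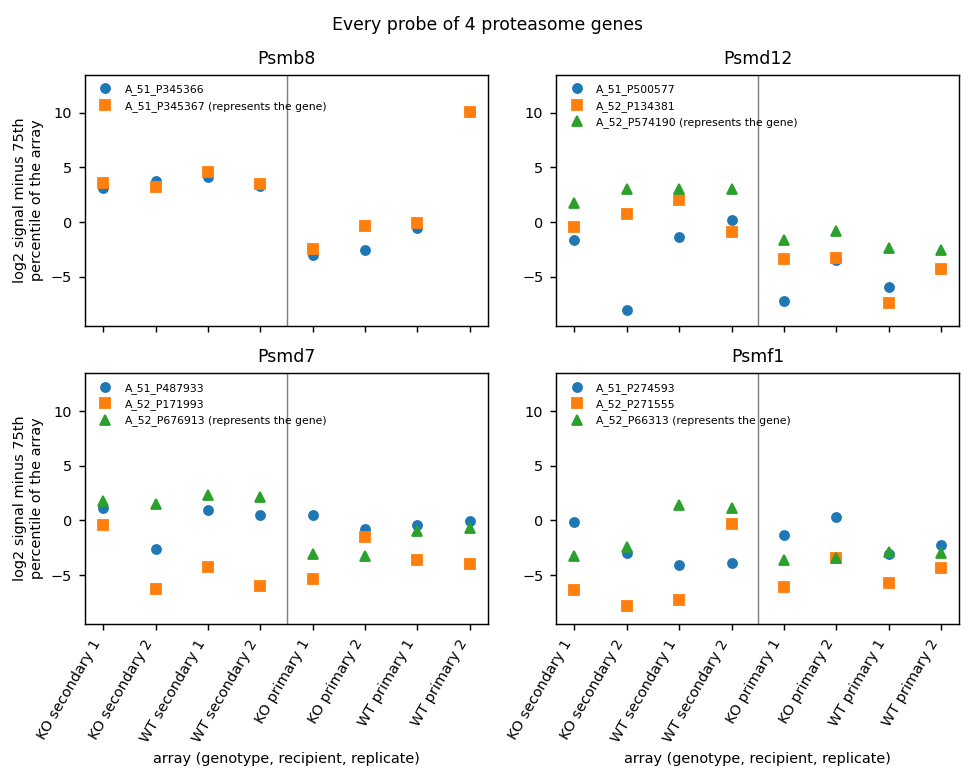
Level of every probe of Psmb8, Psmd12, Psmd7 and Psmf1 on the 8 arrays (log2 signal minus the array's 75th percentile). The Psmb8 probes run together, each Psmd12 probe is lower on primary arrays on average, and for Psmd7 and Psmf1 the probes differ, with changes between recipients of 0.75 and 4.49 for Psmd7 and -0.64 and 2.97 for Psmf1.

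Other genes of the ubiquitin-proteasome pathway were described beside the subunits. Of 32 listed genes 28 were tested, and none passed an adjusted p under 0.05 in limma in any comparison. Between secondary and primary recipients over both genotypes their median change was 1.11 (19 above the median gene, 9 below), with 5 higher and 0 lower at an unadjusted p under 0.05 (5.44% and 14% of all genes). The 20 of them that passed through both recipient kinds had a median of 0.35 (12 above, 8 below), and Rad23b and Vcp were the higher ones among these, while Nfe2l2, Txnl1 and Ubqln2 passed through 1 recipient kind only. Rad23b, which carries substrates to the proteasome, had a change of 2.96 (SE 0.78, limma adjusted p = 0.245). Vcp, the ATPase that extracts ubiquitinated proteins, had 3.27 (SE 0.71, adjusted p = 0.221). For the 3 that passed through 1 recipient kind, the difference may in part be fixed by the filter, so they are given with no test. They were Txnl1, a thioredoxin-like protein bound to the regulatory particle (4.81), Nfe2l2, a stress-response transcription factor (4.12), and Ubqln2, another carrier of substrates (3.48). Nfe2l1, the transcription factor known to induce proteasome genes when proteolysis is impaired, had a change of 1.08 (SE 0.62, adjusted p = 0.792), and Pomp, the chaperone of core assembly, 2.37 (SE 1.21, adjusted p = 0.458). In KO against WT in secondary recipients the pathway's median was -0.73 (-0.26 before centring), with 3 above the median gene and 25 below, of which 0 had an unadjusted p under 0.05. Of the immunoproteasome's partners in antigen processing, 7 of 8 were tested, with 1 above and 6 below the median gene in KO against WT over both recipients (median -0.77, 0 at an unadjusted p under 0.05). Tap1, a subunit of the peptide transporter, was at -1.81 (SE 1.33, limma adjusted p = 0.859).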

How the data were processed

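The deposited scanner files hold linear intensities per spot: the processed signal, from which background was already subtracted, the mean signal and the background around the spot, with quality marks. The authors' scanner software was Agilent Feature Extraction, version 10.5.1.1, as the headers give it. The deposited series matrix is a ratio of each processed intensity to its array's median, as its comparison with the scanner values showed, and served as an alternative. Spots marked as outliers were left out (0 were saturated), spots of a probe were averaged, and the value was log2 of the processed signal minus the array's 75th percentile. Names are those of the files, and positions are mm8. A gene was tested if some group had every array of one of its probes well above background, and the probe of highest mean represented it. Tests used lmFit and eBayes of limma 3.58.1 (R 4.3.3) in 1 fit over 4 groups, and in an additive model of genotype and recipient for comparisons over all 8 arrays, with Benjamini-Hochberg adjustment over all 22990 genes and a threshold of 0.05. P-values and SEs refer to changes before centring on the median gene, which shifted by -1.03 to 0.47. The comparisons share arrays: each group enters 2 of the 4 comparisons between single groups. Only 2 arrays a group limit the precision.

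The members, gene lists and tests were chosen with earlier results of these data known. Named were the 6 catalytic genes and, per comparison, the 2 members of lowest p in each direction (2 in all for the interaction); naming the highest and lowest member of each class was dropped, since levels of different probes are not comparable. Comparisons of recipients are given also for the genes whose representing probe passed the filter in a group of each recipient kind, a restriction added after the data were seen. Alternatives were median scaling, quantile normalization, normexp background (offset 50), the series matrix, no filter or a filter on all arrays, every probe, each array left out, both dim arrays left out, a replicate block and a random slide block. The fit was tested on simulated data. Same-numbered replicates were checked for pairing: their deviations correlated at r = 0.15 between the 2 primary groups, whose replicates 2 are the dim arrays, and at -0.03 to 0.01 between the other 5 pairs of groups, so the numbers were not taken to pair the samples.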

Additional observations from a re-analysis of the deposited data

How the results depend on the processing

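No member passed the threshold in any comparison except under these alternatives. Over both genotypes, secondary against primary recipients gave 3 members (209 genes in all) after quantile normalization, 2 (51) without both dim arrays, 1 (89) with every probe fitted and 1 (42) with slide as a random block; Psmb2 was the member in the last 2, at 6.80 (adjusted p = 0.0492) and 6.92 (0.0458), and was at 7.90 (0.0162) after quantile normalization, beside Psmd12 at 5.59 (0.0217) and Psmd7 at 4.91 (0.0296). With 1 array left out, KO against WT in primary recipients gave 0 to 5 members, and Psmd14 was at -10.33 (0.0295) without replicate 1 of WT.

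The median of members kept its direction under every alternative run except KO against WT in primary recipients without replicate 1 of WT. With a filter on all arrays it was -1.39 for KO against WT in secondary recipients, -0.46 over both, -0.088 for the interaction, and for secondary against primary 1.62 in WT, 0.78 in KO and 1.28 over both. After quantile normalization it was -0.79 for the interaction, and 2.89, 1.67 and 2.68 for those 3. For the members that passed in both recipient kinds, an alternative chosen after seeing the data, secondary against primary gave 1.04 in WT, 1.0 in KO and 0.88 over both. With every probe it was 2.05 in WT, and without both dim arrays -0.98 for the interaction and 0.85 in KO. With 1 array left out it ranged from -1.02 to 0.0058 (KO against WT, primary), -1.29 to -0.74 (secondary), -1.05 to -0.34 (both), -0.87 to -0.13 (interaction), and for secondary against primary from 1.85 to 2.72 in WT, 0.85 to 1.84 in KO and 1.20 to 2.09 over both.

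Single genes turned direction as follows. With 1 array left out, KO against WT over both recipients was -0.43 to 0.31 for Psmb5 and -1.27 to 0.36 for Psmb9, secondary against primary over both genotypes -0.11 to 1.64 for Psmb9, KO against WT in primary recipients -0.11 to 13.89 for Psmd13, and secondary against primary in WT -4.71 to 0.047 for Psmc2. Quantile normalization gave Psmf1 2.12 in secondary recipients, 1.96 over both and 0.31 for the interaction, and Psmd4 2.69 in KO and 2.54 over both genotypes. Normexp gave Psmd4 2.57 and 2.61, Psmc2 1.81 and Psme3 0.35. For Psmf1, Psmd4 and Psmc2 another probe represented the gene there. For Psme3 the cause was not tested. Of the values of named genes under the alternatives, 624 kept direction and side of the threshold, 20 turned direction and 6 passed the threshold. The replicate block changed no call: the median over both genotypes stayed at 1.67. With 2 arrays a group and 2 of 8 arrays dim, each primary group holds 1 dim array. Signal over background limits the values of that array, which enters every group mean from primary recipients.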
